A study of Saccharomyces cerevisiae with 6 samples.

Results

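The cytosolic large ribosomal subunit of budding yeast is built from ribosomal RNA and a set of proteins named RPL, with a lateral stalk of proteins named RPP. The members described here are all annotated genes whose standard name is RPL plus digits, with or without A or B, together with RPP0, RPP1A, RPP1B, RPP2A and RPP2B. All 81 such genes were found in the deposited table of 7554 transcripts. By name they form 46 groups, called proteins below: 35 pairs of A and B copies and 11 single genes. RPP1 and RPP2 are counted as pairs by name, although their A and B genes encode clearly different proteins. RNA was measured in 3 libraries of strain yMH007, which contains dChr, an artificial chromosome that carries data, and in 3 libraries of strain yMH104, the control, which the series describes as holding an empty plasmid in place of it. The medium, SC-Ura liquid medium lacking uracil, and the temperature of 30 °C were common to the strains, and no further genotype is given in the labels. Whether the 3 libraries of a strain come from independent cultures is not stated in the labels. The p-values therefore reflect only how far these libraries differ, which may be technical.

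The large subunit holds the peptidyl transferase centre, where peptide bonds form, and the tunnel through which the new chain leaves. Its stalk recruits the translation factors that hydrolyse GTP. Genes for ribosomal proteins are among the most heavily transcribed in growing yeast and are usually controlled together, through promoter-bound factors such as Rap1, Fhl1 and Sfp1. Most of these genes were kept as duplicates after a genome duplication, and many carry an intron. The copies of most pairs make proteins that are identical or nearly so. The RPP1 and RPP2 copies are less alike, with coding sequences 69.2% and 73.6% identical.

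The values are TPM, a unit that corrects read numbers for transcript length: each library is then scaled to a common total. The sequencing depth of a library is therefore unknown, and no counting interval is given. The deposited columns fell short of the full scale of 1000000. They summed to 970077 to 989828 TPM in dChr and 979804 to 992087 TPM in control, and were not rescaled in the main fit. Protein-coding nuclear genes took 43.9% to 48.8% of the TPM of a dChr library and 41.2% to 45.7% of a control library. Assembled transcripts with no gene name took 24.6% to 34.9% in dChr and 20.3% to 34.6% in control. The summed TPM of 5 genes specific to a cells was 279.8 to 318.3 in dChr and 598.2 to 678.4 in control, against 8.85 to 12.7 and 11.4 to 15.8 for 3 genes specific to alpha cells. URA3, which the medium selects for, was at 39.3, 45.4 and 45.5 TPM in dChr and at 48.0, 44.1 and 35.2 TPM in control.

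Most large-subunit genes were abundant. The median gene had a mean of 276.7 TPM over the 6 libraries, where the median tested transcript had 10.1 TPM. Of the 81 genes, 61 averaged at least 100 TPM and 11 at least 1000 TPM, while 11 averaged under 20 TPM. RPP0, which anchors the stalk to the ribosome, was the highest single gene. It stood at 2719, 2761 and 2834 TPM in dChr and at 2222, 2288 and 2280 TPM in control. Summed over copies, RPL4, a protein that lines the exit tunnel, was highest over the 6 libraries, at 2883 ± 56.7 TPM in dChr and 2601 ± 18.7 TPM in control (SD, n = 3 each), although in control RPL27 had the higher mean of 2631 TPM. Other abundant single genes were RPL3, RPL4A, RPL16B and RPL27A. RPL4A was at 1804, 1815 and 1741 TPM in dChr and at 1519, 1538 and 1536 TPM in control, without overlap. RPL16B was at 1508, 1578 and 1499 TPM in dChr and at 1349, 1626 and 1450 TPM in control, which overlap, as do the libraries of RPL27A (1281, 1412 and 1447 TPM in dChr and 1186, 1400 and 1366 TPM in control). Libraries of a strain lay close together: the median coefficient of variation over the 74 tested genes without a stray library was 5.08% in dChr and 9.35% in control.

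**Figure D1:**
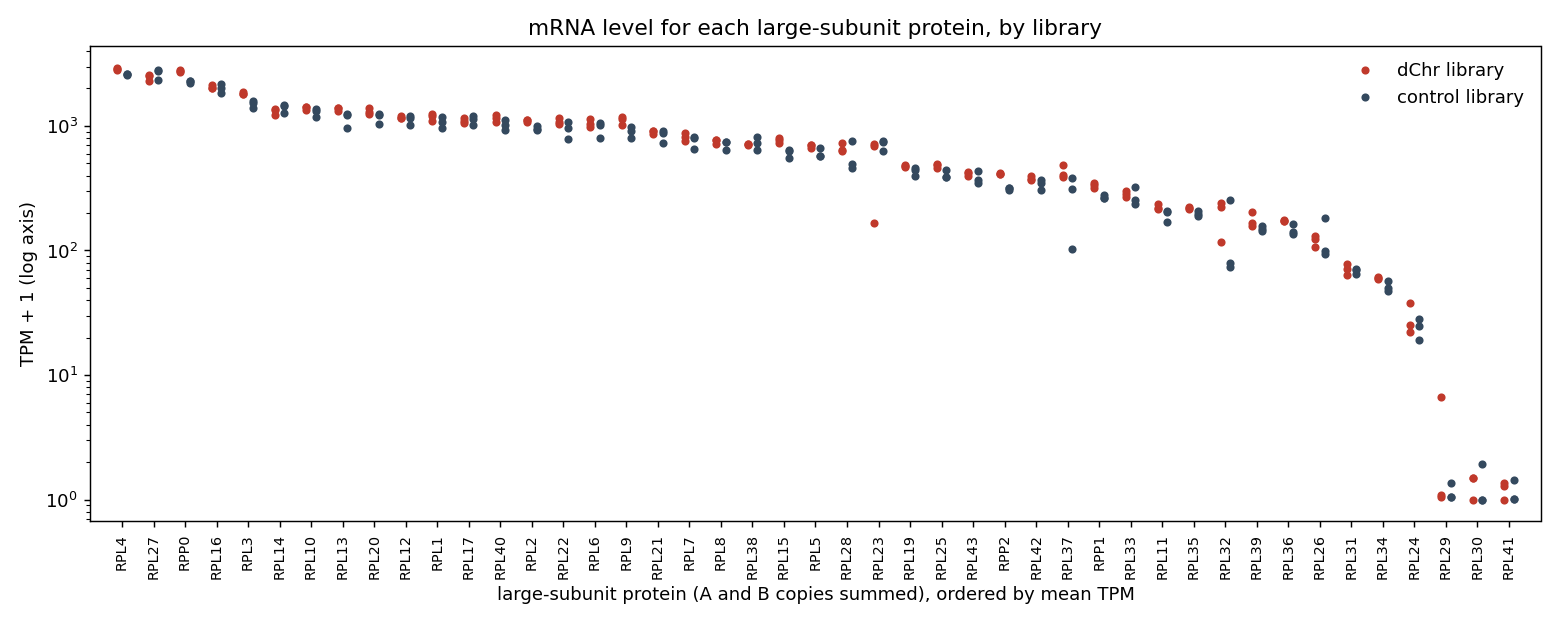
TPM + 1 on a log axis for 45 of the 46 large-subunit proteins, with A and B copies summed; each point is a library, dChr at the left and control at the right of each protein. Most proteins lie within a narrow band between strains, while RPL29, RPL30 and RPL41 sit near 0 TPM, and RPL23, RPL37 and RPL32 have scattered libraries.

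Some members had almost no signal in the table, and others were low for this family. RPL30, an essential protein that in yeast binds its own transcript and lowers its splicing, was at 0.502, 0.496 and 0 TPM in dChr and at 0, 0 and 0.916 TPM in control. RPL29, a short basic protein, was at 5.65 TPM in dChr library 3 and at or under 0.363 TPM in the other 5 libraries. RPL34A was listed at 0 in a library of each strain and reached at most 2.38 TPM. RPL24A and RPL24B, the copies of a late-joining protein that touches the small subunit, stood at 6.89 to 26.3 and at 6.83 to 11.4 TPM over the 6 libraries. Their means of 15.8 and 9.53 TPM were low for members but lay near the 10.1 TPM of the median tested transcript. Since every cell makes RPL30, values near 0 here may be failed estimates, and they are given only as listed. RPL30, RPL41A and RPL41B did not reach a mean of 1 TPM and were not tested. RPL29 and RPL34A passed that filter by a narrow margin, with means of 1.04 and 1.00 TPM, RPL29 only through a single dChr library.

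RPL41, the smallest ribosomal protein, is encoded by a pair of genes, both on the minus strand of chromosome IV in the R64 reference. Their coding sequences are shown because both stayed under 1 TPM in all 6 libraries and because the copies are almost the same. RPL41A lies at chrIV:130407-130484 and RPL41B at chrIV:221724-221801, and the capital marks the 1 base of 78 at which they differ.
RPL41A: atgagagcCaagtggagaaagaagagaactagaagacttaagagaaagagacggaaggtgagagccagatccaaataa
RPL41B: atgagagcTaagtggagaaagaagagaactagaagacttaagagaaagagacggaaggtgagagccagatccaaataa
RPL41A was at 0.361, 0.285 and 4e-06 TPM in dChr and at 0.434, 1e-04 and 0.000118 TPM in control. RPL41B did not exceed 4.8e-05 TPM in any library. The libraries of the strains overlap for RPL41A and for RPL41B.

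In 4 members a library lay 4-fold or more from both others of its strain on the TPM + 1 scale. RPL23B, a copy of a highly conserved protein, was at 30.3 TPM in dChr library 1 against 545.2 and 567.3 TPM in dChr libraries 2 and 3, with 493.1, 599.2 and 574.6 TPM in the control libraries. RPL37A was listed at 0 in control library 2 and stood at 214.7 and 272.3 TPM in the other controls, with 291.3, 355.3 and 260.3 TPM in dChr. RPL26A was at 91.6 TPM in control library 1, at 6.25 TPM in dChr library 2 and listed at 0 in the other 4 libraries. RPL29, above, was the fourth. The partner copies RPL23A, RPL37B and RPL26B showed no such gap, with RPL26B between 104.9 and 130.6 TPM in dChr and 89.5 and 98.0 TPM in control. None of the 4 was called, so the counts of calls below, 3 and 1, necessarily stay the same without them.

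The first comparison asked how the large-subunit transcripts differ between the strain with the artificial chromosome and its control. Few members passed the test: of 78 tested, 3 rose in dChr (RPP2A, RPP1A and RPL15A) and RPL22B fell, by limma with Benjamini-Hochberg adjustment over all 5938 tested transcripts at 0.05. That is 3.85% and 1.28% of members, where 4.19% and 9.16% of all tested transcripts rose and fell. Beneath these calls most members lay slightly higher in dChr. Their median log2 fold change was 0.16, against -0.04 for all tested transcripts, and 59 of them (75.6%) had a positive value, against 44.4% of all. For 25 members every dChr library lay above every control library (32.1%, against 12.9% of all transcripts) and for 4 every dChr library lay below (5.13%, against 21.2%). The 4 were RPL22B, RPL7B, RPL27B and RPL14B. At an unadjusted p under 0.05 by limma, 17 members were higher and 3 lower. Both directions together made 25.6% of members and 27.8% of all tested transcripts. The share of all transcripts in each direction is not given at this threshold.

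The small shift toward dChr rested partly on control library 1. It was the lowest of the 6 libraries for 53 of the 78 tested members (67.9%) and for 21.8% of all tested transcripts. Without control library 1 the median of the members was 0.08. The median of the members was also 0.08 when TPM were rescaled to protein-coding nuclear genes alone. That rescaling shifts all protein-coding genes of a library nearly alike, so the lower value need not be a smaller gap to them. In that setting 251 transcripts rose and 932 fell, against 249 and 544 in the main fit, where the protein-coding median was -0.04. With median-ratio scaling 7 members rose and 1 fell, beside 496 and 642 of all tested transcripts, where the unscaled TPM gave 249 and 544. The count of 3 that rose was 1 without control library 1 (RPP2A) and 0 without control library 3. It was 0 without dChr library 1, 2 or 3. Without control library 2 it was 3, among them RPP2A and RPP2B, while RPP1A and RPL15A were not called. RPL22B was called in each of these fits.

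**Figure D2:**
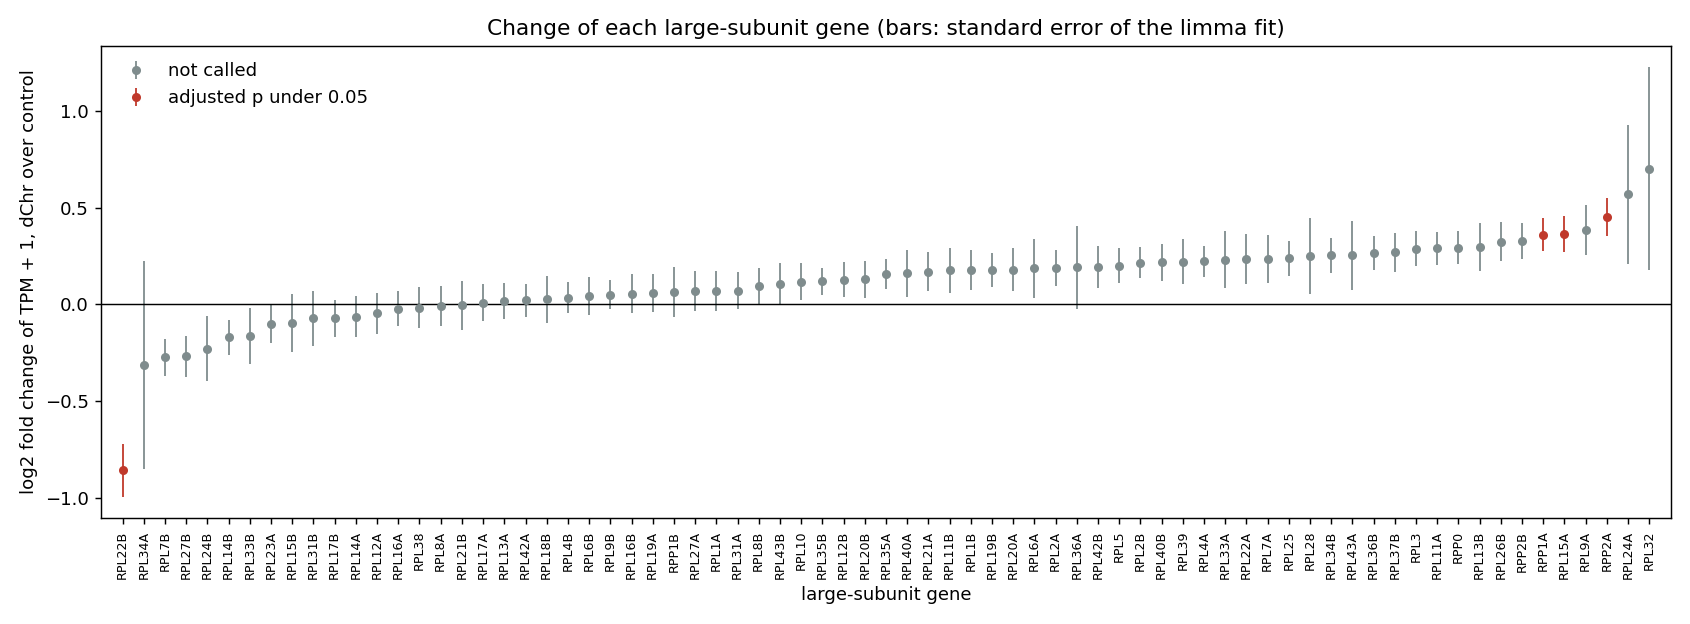
Log2 fold change of TPM + 1, dChr over control, for 73 of the 74 tested large-subunit genes without a library 4-fold apart, ordered by size; bars are standard errors of the limma fit and red points passed an adjusted p of 0.05. RPL22B stands alone at the low end at -0.86, most genes lie between 0 and 0.4, and RPL32, RPL24A and RPL34A have wide bars.

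The summed level of the members was also compared. Large-subunit genes took 8.44%, 8.42% and 8.66% of protein-coding TPM in the dChr libraries and 7.83%, 8.22% and 8.38% in the control libraries. The groups did not overlap, but the log2 difference was 0.06, and the exact permutation test, two-sided, gave p = 0.1, the smallest that 3 against 3 libraries allow. Without control library 1 the log2 difference was 0.04. As a share of all TPM the values were 3.71%, 4.10% and 3.95% in dChr and 3.23%, 3.76% and 3.66% in control, which overlap (log2 difference 0.14, exact permutation p = 0.2). In bulk TPM, fewer cells that express a gene and less of its RNA per cell cannot be told apart, nor can less of some RNAs and more of the others. Small-subunit genes took 8.12% to 8.29% of protein-coding TPM in dChr and 7.44% to 8.23% in control.

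Abundance moved with this shift. Members with a mean of at least 500 TPM (29 genes) had a median log2 fold change of 0.18, and the 97 other protein-coding transcripts above that level, ribosomal proteins left out, had 0.14. Between 100 and 500 TPM the medians were 0.14 for 32 members and 0.04 for 386 others. Between 20 and 100 TPM they were 0.07 for 9 members and -0.03 for 1135 others, and between 1 and 20 TPM they were -0.15 for 8 members and -0.06 for 3331 others. The part of abundance in the result was not tested.

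The stalk held 2 of the 3 members that rose. Of its 7 tested genes 2 were called higher, where 4.19% of all tested transcripts were. The stalk is a pentamer of RPP0 with the acidic proteins RPP1A, RPP1B, RPP2A and RPP2B, on a base formed with RPL12. RPP2A was at 250.8, 239.5 and 249.7 TPM in dChr and at 193.1, 159.3 and 190.4 TPM in control. Every dChr library lay above every control library, with a log2 fold change of 0.45 ± 0.10 (SE, limma adjusted p = 0.0299). RPP1A was at 267.4, 303.4 and 285.6 TPM in dChr and at 234.5, 209.9 and 221.9 TPM in control. Its libraries did not overlap either, and it rose by 0.36 ± 0.09 (limma adjusted p = 0.0421). RPP2B stood at 160.4, 169.0 and 168.4 TPM in dChr and at 121.8, 146.4 and 128.9 TPM in control, a log2 fold change of 0.33 ± 0.09 that did not pass (limma adjusted p = 0.0694). RPP0 also did not pass, at 0.29 ± 0.09 (limma adjusted p = 0.0764), although its dChr libraries, from 2719 TPM up, all lay above its control libraries, at most 2288 TPM. RPP1B differed little, at 47.5 ± 0.735 TPM in dChr and 45.9 ± 7.82 TPM in control (SD, n = 3 each). The base copies RPL12A and RPL12B had log2 fold changes of -0.05 and 0.13. The median of the 7 stalk genes was 0.29, against 0.16 for all tested members.

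These stalk calls lay close to the threshold. That of RPP2A was lost without dChr library 1, 2 or 3 or control library 3 (limma adjusted p of 0.112, 0.0798, 0.105 and 0.0558), and that of RPP1A whichever library was left out (0.0555 to 0.138). Both were lost with quantile normalization, without assembled transcripts and without the intensity trend, RPP2A also with median-ratio scaling and RPP1A with a replicate block (limma adjusted p = 0.074). Over the 18 alternatives the log2 fold change of RPP2A ranged from 0.36 to 0.51 and that of RPP1A from 0.28 to 0.42.

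RPL15A, the major gene for a protein deep in the subunit that contacts several RNA domains, was the third that rose. It was at 685.8, 744.1 and 715.9 TPM in dChr and at 508.9, 582.3 and 578.8 TPM in control, without overlap (log2 fold change 0.36 ± 0.09 SE, limma adjusted p = 0.0473). Its minor copy RPL15B was at 44.9, 48.6 and 52.5 TPM in dChr and at 41.9, 61.0 and 55.1 TPM in control, which overlap. The call of RPL15A was lost whichever library was left out (limma adjusted p from 0.0631 to 0.15), without assembled transcripts (0.176) and without the intensity trend (0.0756).

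**Figure D3:**
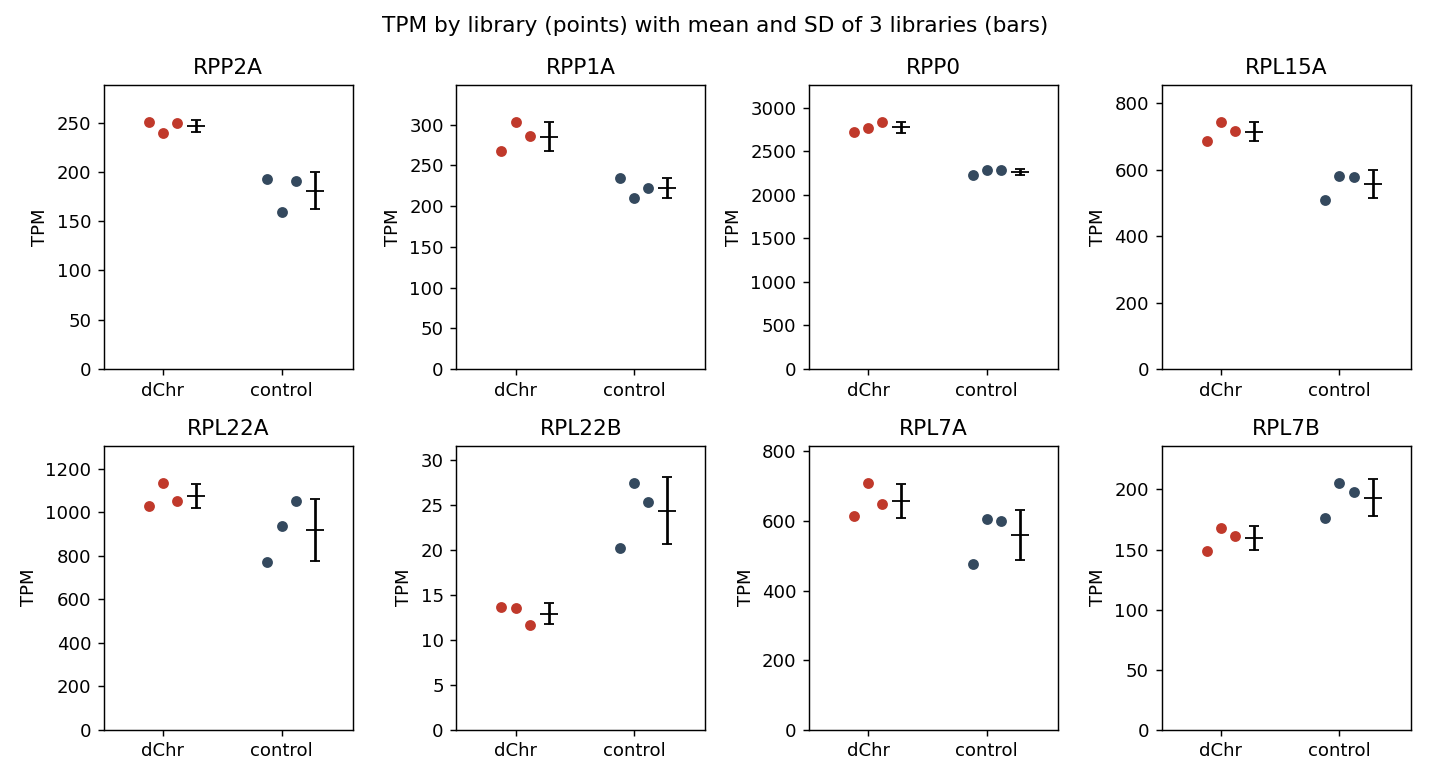
TPM in each library (points) with the mean and SD of 3 libraries (bars) for RPP2A, RPP1A, RPP0, RPL15A, RPL22A, RPL22B, RPL7A and RPL7B, dChr at the left and control at the right of each panel, each axis from 0. The dChr points lie above the control points for RPP2A, RPP1A, RPP0, RPL15A and RPL7A and below them for RPL22B and RPL7B; those of RPL22A overlap.

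RPL22B was the single member that fell. RPL22 is a protein on the surface of the large subunit that yeast can live without, and in yeast it binds the RPL22B intron and lowers the splicing of that transcript. RPL22B was at 13.6, 13.5 and 11.6 TPM in dChr and at 20.2, 27.4 and 25.3 TPM in control. The libraries did not overlap, and RPL22B fell by 0.86 ± 0.14 on the log2 scale (limma adjusted p = 0.0101). The call held in the 18 alternatives run, with adjusted p between 0.00085 and 0.0395 and log2 fold changes between -0.98 and -0.71. The major copy RPL22A was at 1030, 1136 and 1054 TPM in dChr and at 770.6, 935.0 and 1051 TPM in control, which overlap (log2 fold change 0.23 ± 0.13 SE, limma adjusted p = 0.305). RPL22A thus made 98.8% ± 0.109 of the RPL22 transcripts in dChr and 97.4% ± 0.251 in control (SD, n = 3 each). The RPL22 coding sequences are 78.9% identical, with no shared run over 23 bases, among the least alike of the pairs.

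RPL22A has 2 coding exons at chrXII:263194-263948 on the plus strand, with an intron of 389 bases, and RPL22B has 2 at chrVI:64243-64932 on the minus strand, with an intron of 321 bases. The table gives no separate value for spliced and unspliced transcripts. The 300 bases before each coding start are shown because RPL22B was the member that fell while its partner did not. They run 5′ to 3′ from the R64 reference, at chrXII:262894-263193 on the plus strand and chrVI:64933-65232 on the minus strand. Capitals mark the match, on either strand, to a simplified Rap1 consensus of 11 bases with 3 positions left free, whose letters were chosen after these windows had been looked at.
RPL22A: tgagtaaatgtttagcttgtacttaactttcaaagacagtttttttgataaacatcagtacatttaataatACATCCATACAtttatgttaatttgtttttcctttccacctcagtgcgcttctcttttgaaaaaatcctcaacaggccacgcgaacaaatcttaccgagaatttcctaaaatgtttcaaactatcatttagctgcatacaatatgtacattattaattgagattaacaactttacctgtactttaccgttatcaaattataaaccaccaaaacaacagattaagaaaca
RPL22B: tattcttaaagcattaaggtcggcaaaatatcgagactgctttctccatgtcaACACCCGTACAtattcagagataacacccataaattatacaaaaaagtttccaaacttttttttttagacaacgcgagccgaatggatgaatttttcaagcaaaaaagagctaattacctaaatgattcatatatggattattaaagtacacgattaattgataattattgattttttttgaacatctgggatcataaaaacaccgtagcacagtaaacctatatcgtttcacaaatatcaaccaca
Each window held 1 match, which begins 229 bases before the coding start in RPL22A and 247 bases before it in RPL22B. Within 500 bases before the coding start this pattern was found for 20 of 81 members (24.7%) and for 148 of 6002 protein-coding genes (2.5%). The median log2 fold change was 0.16 for the 19 tested members with a match and 0.16 for the 59 without. Of these, 1 and 3 were called, where 13.4% of all tested transcripts were. The hexamer GACGCA, a simplified Fhl1 pattern searched on both strands, was found for 18.5% of members and 10.9% of all genes. A run of 10 T, also on both strands, was found for 37.0% and 23.7%. A match is a description of these letters and not a bound site, and a gene without a match may still hold one. Members with and without a match are therefore not members bound and unbound by Rap1.

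The 5S particle, the catalytic and late-joining group and the exit tunnel held no call, where 13.4% of all tested transcripts were called. The particle that brings 5S RNA into the subunit contains RPL5 and RPL11. RPL5 was at 668.2, 706.0 and 696.0 TPM in dChr and at 567.7, 659.8 and 578.0 TPM in control. The groups did not overlap, with a log2 fold change of 0.20 ± 0.09 (SE, limma adjusted p = 0.217). RPL11A averaged 84.6 ± 3.81 TPM in dChr and 69.2 ± 4.28 TPM in control (SD, n = 3 each), also without overlap, with limma adjusted p = 0.0753. RPL11B, the more abundant copy, had overlapping libraries and a log2 fold change of 0.17.

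Among proteins at the catalytic centre and those that join late, 0 of 9 were called by limma, against 13.4% of all tested transcripts. The median log2 fold change of the 9 was 0.22. Libraries did not overlap for 4 of them, where the share over all tested transcripts was 34.1%. RPL3, which reaches toward the peptidyl transferase centre, was at 1816, 1889 and 1812 TPM in dChr and at 1403, 1592 and 1527 TPM in control (log2 fold change 0.29 ± 0.09 SE, limma adjusted p = 0.0935). RPL2A and RPL2B, the copies of a core protein of that centre, had log2 fold changes of 0.19 and 0.22, and neither pair of groups overlapped. RPL10, a late protein needed before the subunit becomes active, was at 1393 ± 48.9 TPM in dChr and 1288 ± 99.8 TPM in control (SD, n = 3 each), which overlap. RPL40A and RPL40B, made as fusions to ubiquitin, had log2 fold changes of 0.16 and 0.22. In this group 2 of the 9 genes, RPL2B and RPL3, passed an unadjusted p of 0.05, against 27.8% of all tested transcripts.

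Of 14 genes for proteins that line the exit tunnel or ring its opening, 0 were called by limma, against 13.4% of all tested transcripts. The median log2 fold change of the 14 was 0.09. RPL25, which forms the docking site of the signal recognition particle at the exit, averaged 477.2 ± 18.7 TPM in dChr and 405.4 ± 33.7 TPM in control (SD, n = 3 each), without overlap (limma adjusted p = 0.151). RPL4A had a log2 fold change of 0.22 and RPL4B 0.03. RPL17A and RPL17B stood at 0.01 and -0.07. RPL39, a very short tunnel protein, was at 174.0 ± 24.5 TPM in dChr and 148.4 ± 7.82 TPM in control (SD, n = 3 each), which overlap. In this group 3 of the 14 genes, RPL4A, RPL25 and RPL26B, passed an unadjusted p of 0.05, as did 27.8% of all tested transcripts.

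Of the 81 genes 53 have an intron in the coding sequence. The 52 tested genes with an intron had a median log2 fold change of 0.12, with 0 higher and 1 lower by limma, and 38 positive. The 26 tested genes without an intron had 0.19, with 3 higher and 0 lower, and 21 positive. Over all tested transcripts 4.19% were called higher and 9.16% lower, and 44.4% were positive. The difference between genes with and without an intron was not tested. RPL7A and RPL7B each hold a small nucleolar RNA gene within the annotated gene, SNR39 and SNR59, and how reads from these were assigned is not given in the sources used here.

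The next comparison set the A copy against the B copy within each library, which cancels the scaling of libraries. Both copies were tested in 34 of 35 pairs. The A copy was more abundant in 19 and the B copy in 15, and the higher copy was the same in all 6 libraries for 28 of them. The A copy averaged at least 4-fold above the B copy in 5 pairs and the B copy at least 4-fold above the A copy in 7. RPL22 was among the most uneven, with a mean log2 ratio of A to B of 5.73. RPL15 was also led by A, at 3.62. Pairs led by B included RPL26 at -5.16 and RPL34 at -4.91, and RPL36 at -3.71. The RPL26 mean includes control library 1, with a log2 ratio of 0.03, where RPL26A was at 91.6 TPM; in the other 5 libraries the ratio lay between -7.04 and -4.03. RPL34A stayed at or under 2.38 TPM. RPL34B was at 59.6, 56.3 and 59.4 TPM in dChr and at 48.9, 44.9 and 53.2 TPM in control, and RPL36B at 157.2, 163.7 and 164.0 TPM in dChr and at 126.2, 129.8 and 148.1 TPM in control, both without overlap. Coding identity between copies ranged from 69.2% (RPP1) to 99.4% (RPL1), and 12 of 35 pairs encode the same protein. The longest run of identical bases had a median of 74 and reached 422 in RPL4, so reads from such stretches cannot be assigned to a copy by sequence.

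The balance of copies differed between strains without overlap of libraries in 13 of 34 pairs (38.2%, against 33.9% of the 56 ribosomal protein pairs of both subunits and 27.3% of the 22 small-subunit pairs). RPL22 differed most among these, with log2 ratios of A to B of 6.14, 6.29 and 6.39 in dChr and 5.18, 5.04 and 5.32 in control, a difference of 1.09 ± 0.11 (SE). RPL7, a protein of the subunit surface that binds early, followed. RPL7A made 80.5% ± 0.385 of RPL7 transcripts in dChr and 74.3% ± 1.1 in control (SD, n = 3 each). RPL7A was at 613.3, 709.8 and 648.2 TPM in dChr and at 477.2, 604.6 and 599.4 TPM in control, just without overlap. RPL7B was at 148.6, 168.2 and 161.3 TPM in dChr and at 176.1, 205.6 and 198.0 TPM in control. Neither copy passed alone (limma adjusted p of 0.274 and 0.116), and RPL7B was called lower with a replicate block (0.0466) and among protein-coding genes only (0.00719).

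RPL27 had copies at nearly equal levels in control. Its A copy made 55.9% ± 0.745 of the transcripts in dChr and 50.1% ± 0.396 in control (SD, n = 3 each). RPL27B was at 1029, 1131 and 1102 TPM in dChr and at 1164, 1393 and 1383 TPM in control, without overlap, while RPL27A had overlapping libraries and a log2 fold change of 0.07. RPL15A made 93.6% ± 0.40 of RPL15 transcripts in dChr and 91.4% ± 0.943 in control, and RPL9A made 80.7% ± 0.731 of RPL9 transcripts in dChr and 76.8% ± 2.36 in control (SD, n = 3 each). The smallest differences among the 13 were those of RPL8, RPL1 and RPL14, each near 0.1 on the log2 scale. In the exact permutation test, two-sided, over these 34 ratios no pair can go below p = 0.1, and the 13 pairs were at that value (Benjamini-Hochberg adjusted p = 0.262 for each).

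**Figure D4:**
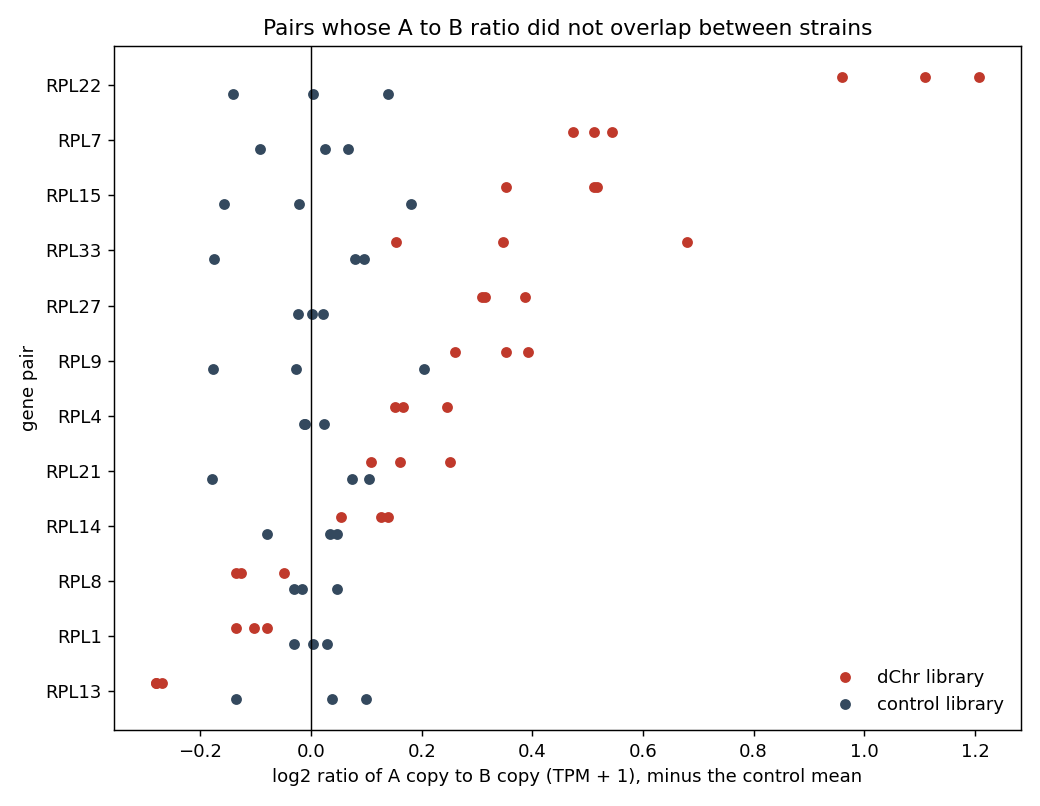
Log2 ratio of the A copy to the B copy (TPM + 1), with the control mean of the pair subtracted, in each library for 12 of the 13 pairs whose ratio did not overlap between strains; dChr is drawn above control in each row. The dChr points lie to the right, toward the A copy, in 9 pairs, with the widest gap in RPL22, and to the left in RPL8, RPL1 and RPL13.

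The direction of these differences followed the abundance of the copies. In the 31 pairs without a stray library, the more abundant copy had the higher log2 fold change in 28, and the exceptions were RPL11, RPL40 and RPL43. The comparison was chosen after the values had been seen. The count takes the sign alone: in 20 of the 31 pairs the A to B ratio differed by under 0.2 on the log2 scale. The 28 include RPL34, whose less abundant copy stayed at or under 2.38 TPM. The pairs share the same 6 libraries and are not replicates. More abundant copies had a median log2 fold change of 0.18, with 1 of 31 below 0 (RPL14A), and less abundant copies had a median of 0.02, with 14 of 31 below 0. The 13 pairs without overlap were all among the 28. Among the 21 pairs whose copies differed at least 2-fold in level, the more abundant copy had the higher value in 20. In 20 small-subunit pairs without a stray library the same was true of 11, with medians of 0.13 and 0.11 for the more and the less abundant copies. The difference between the subunits was not tested.

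**Figure D5:**
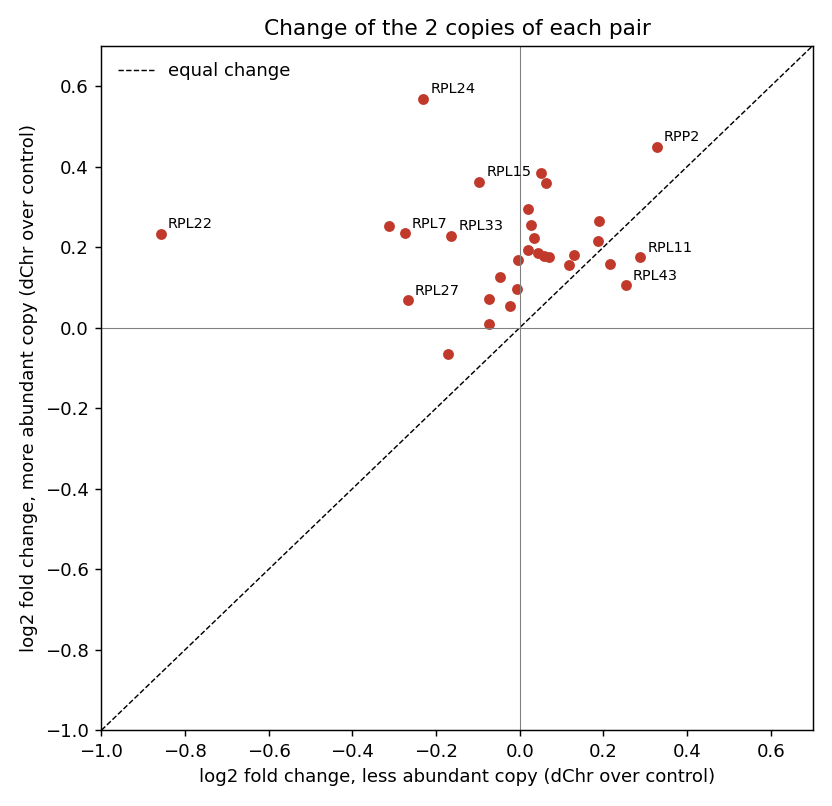
Log2 fold change (dChr over control) of the more abundant copy against that of the less abundant copy in the 31 pairs without a library 4-fold apart; the dashed line marks equal change. In 28 pairs the point lies above the line, farthest for RPL22, and RPL11, RPL40 and RPL43 lie below it.

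Quantile normalization, which rescales values by rank, left 6 pairs without overlap, among them RPL22, RPL7, RPL27, RPL9 and RPL13 of the 13. The more abundant copy then had the higher value in 25 of 31 pairs. The RPL22 difference was 0.93 on that scale and that of RPL7 was 0.48.

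The last comparison was with genes that regulate or assemble the large subunit. Of 8 listed transcription regulators of ribosomal protein genes, 7 were in the table. Limma called 0 of the 7, against 13.4% of all tested transcripts, and 0 passed an unadjusted p of 0.05, against 27.8%. All 7 had a negative log2 fold change, from -0.184 (CRF1) to -0.007 (HMO1). Their median of -0.064 lay near the -0.045 of all tested transcripts, of which 44.4% were positive. The most abundant were FPR1, a proline isomerase found at some of these promoters, at 213.6 TPM in dChr and 223.3 TPM in control, and HMO1, a high-mobility-group protein, at 65.8 TPM in dChr and 66.1 TPM in control. RAP1 was at 10.3 ± 0.421 TPM in dChr and 10.9 ± 1.58 TPM in control.

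Genes for chaperones dedicated to particular large-subunit proteins lay lower in dChr. Of 6 tested, 3 fell and 0 rose, against 9.16% and 4.19% of all tested transcripts, with a median log2 fold change of -0.57. SYO1, which imports RPL5 and RPL11 together, was at 4.79, 6.25 and 6.33 TPM in dChr and at 12.5, 16.4 and 14.9 TPM in control, without overlap, and fell by 1.20 ± 0.15 (limma adjusted p = 0.00423). PUF6, which acts on RPL43, fell by 0.86 and BCP1, the chaperone of RPL23, fell by 0.53. SQT1, the chaperone of RPL10, averaged 29.3 ± 7.38 TPM in dChr and 44.2 ± 1.81 TPM in control (SD, n = 3 each) and did not pass (limma adjusted p = 0.0854). Genes for the proteins these chaperones serve were not called: RPL5, RPL10, RPL11A, RPL11B, RPL43A and RPL43B had positive log2 fold changes, RPL23A had -0.10, and RPL23B is the copy with a stray library. The calls of PUF6 and BCP1 were each lost when dChr library 1, 2 or 3 or control library 2 or 3 was left out (limma adjusted p up to 0.0836 and 0.15). Both were also lost without the filter on low values, and that of BCP1 with quantile normalization, without assembled transcripts and without the intensity trend, while that of SYO1 held in the 18 alternatives run.

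Of 19 tested factors that assemble the pre-60S particle, 6 fell and 0 rose, where 9.16% of all tested transcripts fell, with a median log2 fold change of -0.56. NOG2, a GTPase of late nuclear assembly, averaged 7.32 ± 1.20 TPM in dChr and 20.4 ± 4.14 TPM in control (SD, n = 3 each) and fell by 1.36 ± 0.17 (limma adjusted p = 0.00479). The others were NOG1, RIX1, ARX1, TIF6 and RRS1, and all 6 lay between the -1.36 of NOG2 and the -0.38 of TIF6. The calls of ARX1, TIF6 and RRS1 were lost whichever library was left out, that of RIX1 without dChr library 1 or 3 or control library 3, and that of NOG1 without control library 3 (limma adjusted p = 0.0503), while NOG2 kept its call. ARX1 and RRS1 also lost theirs without the filter on low values, RRS1 with a pseudocount of 0.1, with array weights and with a replicate block, and TIF6 without assembled transcripts and without the intensity trend. In the list of 3 factors related in sequence to ribosomal proteins, 2 were tested and neither passed: MRT4, related to RPP0, had a log2 fold change of -0.68 (limma adjusted p = 0.057) and RLP7, related to RPL7, had -0.30. Of 55 tested small-subunit genes 1 fell (RPS28B, by 1.04) and 0 rose, where 9.16% and 4.19% of all tested transcripts did. The median of these small-subunit genes was 0.12.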

How the data were processed

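RNA was measured in 3 dChr and 3 control libraries. The deposited values are TPM in a single table, scaled within each library by the authors, and TPM keeps no depth. The submitters' processing notes name R 3.6.0, StringTie 2.0, cutadapt 2.6, DESeq2, HISAT2 2.0.5 and the build sacCer3. The role of each tool, any filters and the strand setting are not stated in the material used here. A gene and any antisense partner therefore cannot be separated, and near-identical copies share reads. Names, gene models and sequences came from RefSeq R64, the assembly sacCer3 represents, and 5928 of 7554 transcripts matched by locus tag or symbol.

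Values were analysed as log2(TPM + 1), so a fold change is on that scale and understates low genes. Those averaging 1 TPM or more over the 6 libraries were tested with limma 3.58.1 (R 4.3.3, eBayes with an intensity trend), two-sided, with Benjamini-Hochberg adjustment over 5938 transcripts and a threshold of 0.05. The fit was tested on simulated data. Ratios of copies and summed shares used exact permutation of libraries. Genes named were those called, the 6 highest, members with a library 4-fold apart, the pairs with the most uneven or most different ratios, and role groups; other genes are examples. The values of 1 member are not reported or plotted singly here, and it stays in the counts. Members and lists were chosen with earlier results of these data known. Alternatives were other pseudocounts, filters, scalings and variance models, a replicate block, and each library left out in turn. Python 3.11.15, pandas 2.3.3, numpy 2.4.6 and matplotlib 3.10.9 were used.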

Additional observations from a re-analysis of the deposited data

How the results depend on the processing

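Among members, 3 rose and 1 fell; the cause of the following moves was not tested. The number that rose was 5 at a minimum mean of 10 TPM, 7 with median-ratio scaling, 6 with robust eBayes, 0 without assembled transcripts and 0 without the intensity trend, and 0 to 3 when a library was left out. The number that fell was 4 among protein-coding genes only (RPL22B, RPL7B, RPL27B and RPL14B) and 1 in each fit that left out a library. The median log2 fold change of members stayed between 0.08 and 0.22 in every setting. The share of all TPM gave a log2 difference of 0.145 where the share of protein-coding TPM gave 0.063. Pairs whose copy ratio did not overlap numbered 6 with quantile normalization, against 13. They numbered 15 to 19 when a library was left out. Leaving out a library cannot make separate groups overlap, so that count could not fall and tests nothing. Of all transcripts, 249 rose and 544 fell; 496 rose with median-ratio scaling, 555 with quantile normalization and 151 without assembled transcripts, 932 fell among protein-coding genes only and 360 without assembled transcripts, and leaving out a library gave 113 to 262 that rose and 282 to 417 that fell. The more abundant copy of a pair had the higher change in 25 to 29 pairs over the alternatives, which were added after seeing the data. The number of pairs compared was not 31 in every alternative, since the filter on mean TPM removed or admitted pairs with a low copy. With a replicate block 3 members rose (RPL15A, RPP2A and RPL26B) and 2 fell (RPL22B and RPL7B). Deviations of same-numbered libraries correlated at 0.09, -0.08 and 0.12, so the numbers show no clear pairing. TPM hold no depth, so no limit of detection is given.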
